A study of Mus musculus with 11 samples.

Results

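Open chromatin was described at the genes of the Sonic hedgehog pathway in dopaminergic (DA) and serotonergic (5-HT) neurons of the mouse embryo. The members were 9 genes named for their place in the pathway, *Shh*, *Disp1*, *Ptch1*, *Hhip*, *Smo*, *Sufu*, *Gli1*, *Gli2* and *Gli3*, and 8 of them could be placed among the 22380 protein-coding genes of the mm9 annotation. *Disp1*, whose product releases the ligand from the cell that makes it, was not analysed here. For each of the other 8, all regions of the ATAC-seq peak lists that overlapped the gene body or the 20 kb on either side of it were taken, which gave 180 regions.

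ATAC-seq marks accessible DNA by the insertion of a transposase. There were 3 libraries of DA neurons and 2 of 5-HT neurons, all from embryos at day 14.5 (E14.5) with Swiss wild-type mothers. The DA neurons were GFP-positive cells sorted from the ventral mesencephalon of TH-GFP embryos, so they were defined by the activity of a *Th* promoter in a transgene. The 5-HT neurons were YFP-positive cells sorted from the hindbrain at rhombomeres r1 to r3 of Mash1-CRE x ROSA YFP embryos, so they were defined by past expression of *Mash1*, a gene that is also active in neural progenitors. Tissue from several embryos was pooled for each experiment. Per the paper's methods, fewer cells were sorted for each 5-HT library than for any DA library. The genotype, the reporter, the brain region and the number of cells therefore differed together between the groups, and their parts cannot be told apart.

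Hedgehog ligand binds the receptor PTCH1, which otherwise holds the membrane protein SMO inactive, and active SMO frees the GLI transcription factors from SUFU and from processing into repressors. *Ptch1*, *Hhip* and *Gli1* are themselves transcribed in response to the signal. In the embryonic midbrain and hindbrain, SHH from the notochord and the floor plate patterns the ventral progenitors, including those of DA and 5-HT neurons.

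A score above 0 counted as a peak of that library in the region. The scale of the score is unknown, so it orders the regions of 1 library and was not used to measure a difference between libraries. The DA libraries, replicates 1 to 3, had 52861, 93055 and 94351 peaks, the 5-HT libraries had 38772 and 22879, and the read depth is unknown. Because more peaks make presence more frequent, most comparisons were also made with the 22879 highest-scoring peaks of each library. This is as many as 5-HT replicate 2 had in all (22880 in DA replicate 3 because of a tie). A region is called DA-only when all 3 DA libraries had a peak there and neither 5-HT library did, and 5-HT-only when the 2 5-HT libraries had one and no DA library did.

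The labels were checked at the promoters of marker genes. Of 9 DA neuron markers, 9 had a promoter region in each DA library and 6 in each 5-HT library, but with the same number of peaks 7, 6 and 6 had one in DA and 4 and 6 in 5-HT libraries, and the groups overlapped. At *Th*, which encodes tyrosine hydroxylase, the enzyme that starts dopamine synthesis, the scores were 9.91, 10.6 and 8.45 in DA replicates 1 to 3, with no peak in 5-HT neurons. Of 6 markers of 5-HT neurons, 4, 5 and 4 had a promoter region in the DA libraries and 5 and 2 in the 5-HT libraries, so with all peaks these markers did not set the libraries labelled 5-HT apart. With the same number of peaks they were 2, 1 and 1 against 4 and 2, and the groups touched at 2. *Fev*, a transcription factor of 5-HT neurons, had a promoter peak in 5-HT replicate 1 only (score 3.37), *Tph2*, the gene for the enzyme that starts serotonin synthesis in neurons, had one in all 5 libraries, and *Slc6a4*, the serotonin transporter, had one in the 3 DA libraries (4.8, 6.56 and 3.76) and in neither 5-HT library. At the same number of peaks, *Gata3* was kept in DA replicate 1 and in both 5-HT libraries, and the transcription factor genes *Gata2* and *Nkx2-2* in 5-HT replicate 1 alone. The authors found TPH2 protein in nearly all sorted YFP-positive cells, and in a smaller part of the YFP-negative cells. Their RNA-seq of the YFP-positive cells also showed high expression of genes of DA and GABA neurons. Most but not all of the GFP-positive cells held TH protein, and the paper proposes a slight contamination of them by GABA neurons.

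Markers of other cells differed in the same comparison. Promoter regions of 6 progenitor and radial glia markers were present at 6, 6 and 6 genes in the DA libraries and at 6 and 5 in the 5-HT libraries. With the same number of peaks, these became 2, 1 and 2 in DA neurons against 4 and 5 in 5-HT neurons, and *Vim* was the one gene of this list present in all 5. The 3 GABA neuron markers were at 3, 3 and 3 against 2 and 2 with all peaks, with *Slc32a1* in the DA libraries only, and at 0, 0 and 0 against 2 and 2 with the same number of peaks. Of the 3 oligodendrocyte lineage markers, 1, 2 and 2 had a promoter region in DA libraries and 2 and 2 in 5-HT libraries, with none at *Sox10*, and with the same number of peaks they were 1, 0 and 1 against 2 and 2. The 2 microglia markers had no promoter region in any of the 5 libraries, 2 of the 3 endothelial markers had none, and of the 2 pericyte markers 0, 2 and 1 had one in DA and 0 and 0 in 5-HT libraries. The 2 astrocyte markers had 1, 2 and 2 against 1 and 0, and 1, 1 and 1 against 1 and 0 with the same number of peaks. Of the 2 glutamate neuron markers *Slc17a6* had a promoter region in every library except 5-HT replicate 2, and at the same number of peaks only the 3 DA libraries kept it. What part other cells had in the results at the pathway genes was not tested.

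Most of the 180 regions lay far from promoters. There were 11 at promoters of the members, taken as the 1 kb before a transcription start site (TSS) and the 100 bp after it, 8 at promoters of neighbouring genes and 161 distal regions, of which 132 were centred in an intron of the member, 6 in an exon, 11 upstream and 12 downstream. *Gli2* and *Gli3*, the members with the longest gene bodies, held 56 and 63 of them, more than 99.7% and 99.8% of the 20141 gene windows with at least 1 region. The other windows held 16 regions at *Ptch1*, 14 at *Hhip*, 11 at *Sufu*, 9 at *Shh*, 6 at *Smo* and 5 at *Gli1*, where the median over all windows was 4. Per 100 kb of window, *Gli2* had 21.6 regions, *Gli3* 20.5, *Shh* 17.9, *Ptch1* 15.4, *Hhip* 10.6, *Gli1* 9.67, *Smo* 9.14 and *Sufu* 8.34, against a median of 6.55. This order depends on DA replicate 3, the sole library at 24, 29 and 10 of the regions of *Gli2*, *Gli3* and *Hhip* and at 0 of *Shh*.

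With all peaks, the 3 DA libraries had a peak at 64, 93 and 143 of the regions, and the 2 5-HT libraries at 50 and 30. All 5 libraries shared 23 of the 180 regions (12.8%, 95% Wilson interval 8.67 to 18.4%), the same share as over all regions (12.8%). DA-only regions numbered 16 (8.89%, 5.55 to 14%), against 13.4% of all regions, a share still inside the interval, and all 16 were distal. Without DA replicate 1, 32 regions were DA-only, and without 5-HT replicate 1, 27 were. Only 2 regions were 5-HT-only (1.11%, 0.305 to 3.96%) where the share over all regions was 0.389%, also inside the interval, and both lay in *Ptch1*.

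DA replicate 3 was singled out after its values were seen. It was the sole library with a peak at 66 of the 180 regions (36.7%), against 20.3% of all regions, and 24 of these lay at *Gli2*, 29 at *Gli3* and 10 at *Hhip*. In total 98 regions (54.4%) had a peak in 1 library only, against 44.5% of all regions. When DA replicate 3 was left out, 114 regions had a peak and 51 of them (44.7%) had it in 1 library, against 47.1% over all regions. With all libraries and the same number of peaks, 15 of the 180 regions (8.33%) had a peak in 1 library only, against 10.4% of all regions. The source of the regions seen in DA replicate 3 alone was not tested.

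The order of the groups turned when the same number of peaks was used. DA replicates 1 to 3 had a peak at 16, 15 and 18 of the regions, and 5-HT replicates 1 and 2 at 23 and 30, so every 5-HT library was above every DA library. The means were 16.3 ± 1.53 (SD, n = 3) in DA and 26.5 ± 4.95 (SD, n = 2) in 5-HT neurons. Their difference was -10.2 regions (two-sided exact permutation test, p = 0.2), and p = 0.2 is the smallest that 3 libraries against 2 can give. With the 10000 highest-scoring peaks per library, the difference was -4.33 regions (exact permutation p = 0.6). As a share of all peaks of a library, the regions made up 0.121, 0.0999 and 0.152% in DA neurons and 0.129 and 0.131% in 5-HT neurons, and the groups overlapped.

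Both kinds of region took part. At the promoters of the members, 5, 4 and 5 regions had a peak in DA neurons and 7 and 10 in 5-HT neurons with the same number of peaks. At distal regions, the numbers were 8, 7 and 8 against 10 and 15. Promoters of any gene also took more of the highest-scoring peaks in 5-HT neurons, 47.7 and 48.2% against 43.4, 43.5 and 41.9% in DA neurons. By member, the 5-HT libraries were all above the DA libraries at 2 of the 8 genes, *Ptch1* and *Sufu*, and the DA libraries were all above at none. The first count was 2 to 5 when each library was left out in turn, and the 5 were found without 5-HT replicate 1, where a single 5-HT library had to be above. With all 5 libraries, these shares over all gene windows were 5.98% and 6.53%, and over the windows with at least 5 regions, as all 8 members had, 8.99% and 8.48%.

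**Figure D1:**
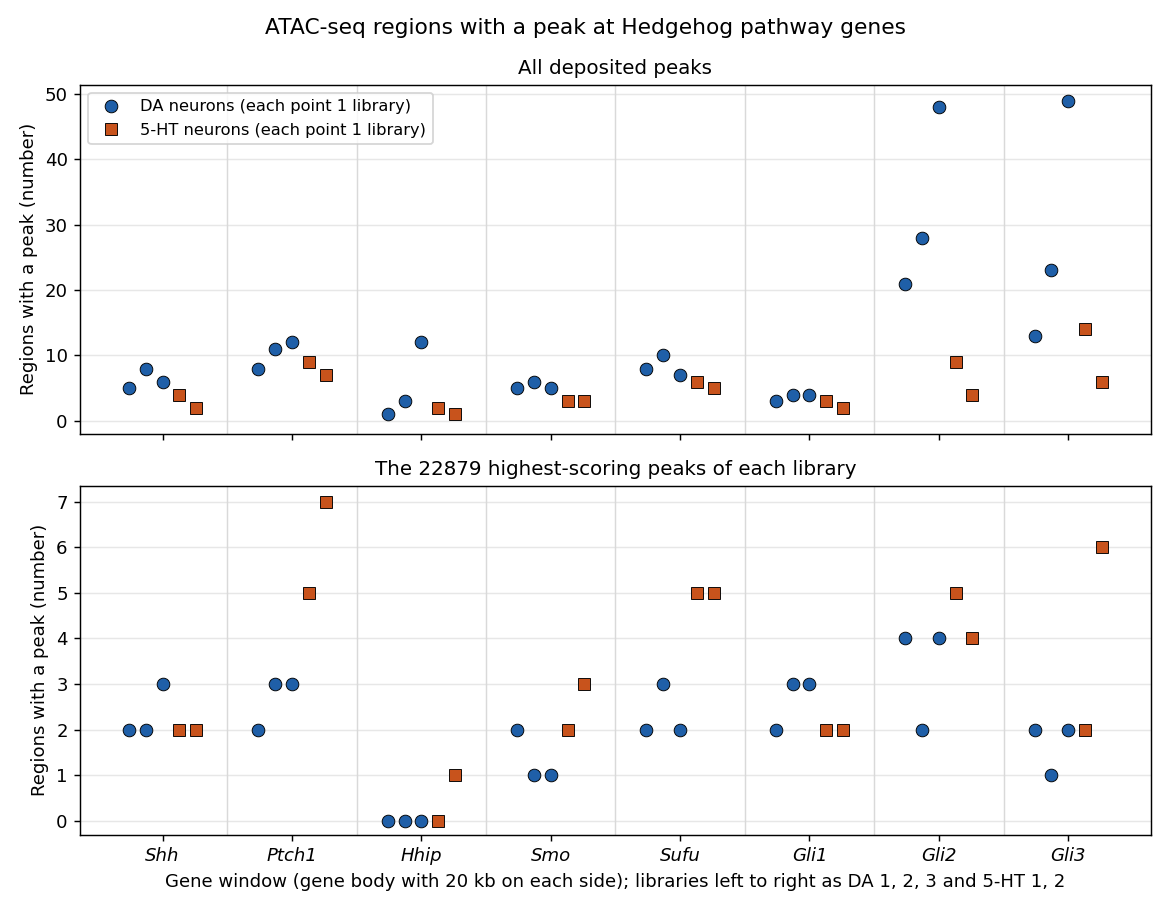
Number of regions with a peak in each library (vertical axis) at the 8 genes (horizontal axis, gene body with 20 kb on each side), with all peaks above and with the 22879 highest-scoring peaks of each library below, as circles for the 3 DA and squares for the 2 5-HT libraries. With all peaks DA replicate 3 reaches 48 regions at Gli2 and 49 at Gli3, and with the same number of peaks the 5-HT libraries stand at 5 and 7 at Ptch1 and the DA libraries at 2, 3 and 3.

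DA-only at the same number of peaks were 3 of the 180 regions (1.67%, 0.568 to 4.78%), against 2.14% of all regions, and they lay at *Shh*, *Gli2* and *Gli3*. A window with such a region was found for 3 of the 8 members and for 12.2% of all gene windows. These 3 windows held 9, 56 and 63 regions, where the median over all windows was 4. Windows of like size were not compared for this count. 5-HT-only were 5 regions (2.78%, 1.19 to 6.34%), against 1.79% of all regions, 2 at *Ptch1* and 1 each at *Smo*, *Sufu* and *Gli2*. At 4 of these 5, all but a region in an intron of *Ptch1*, the DA libraries had a peak as well when all peaks were used, so those 4 differ in rank and not in presence. Both intervals contained the share over all regions. In this comparison, 41 of the 180 regions (22.8%) had a peak in any library, against 30.8% of all regions, and the shares above count the regions without a peak too. 5-HT-only regions rose to 16 without 5-HT replicate 1 and to 19 without 5-HT replicate 2, where 1 5-HT library had to have the peak and, in the latter case, more peaks of each library were used.

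Promoters were mostly open in both cell types. A promoter region was present in all 5 libraries at 7 of the 8 members, against 48.3% of all protein-coding genes, and *Gli1* was the exception. When the region's centre had to lie in the promoter, the number of members was 4. At the same number of peaks, 4 of the 8 kept one in all 5 libraries, *Shh*, *Ptch1*, *Sufu* and *Gli2*, against 37.9% of all genes. With all peaks, 0 of the 11 promoter regions were DA-only or 5-HT-only, against 4.91% and 0.0863% of all promoter regions. At the same number of peaks, 2 of the 11 were 5-HT-only (18.2%, 5.14 to 47.7%), at *Ptch1* and *Smo*, against 3.63%, and 0 were DA-only, against 0.875%. In 5-HT replicate 1 these regions ranked 22019 and 22641, just within the 22879 peaks used.

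*Shh*, the ligand of the pathway, lies on the minus strand at chr5:28783355-28793641 with 9 regions in its window. Its promoter region, chr5:28793040-28793762, centred in exon 1, had scores of 6.17, 10.1 and 8.03 in DA and 5.29 and 3.17 in 5-HT neurons. It was present in all 5 libraries also with the same number of peaks, and the promoter of the lincRNA *9530036O11Rik*, on the opposite strand, overlaps it. Of the 9 regions, 5, 8 and 6 had a peak in DA neurons and 4 and 2 in 5-HT neurons, and 2, 2 and 3 against 2 and 2 with the same number of peaks.

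The *Shh* window held 2 DA-only regions. One, chr5:28777850-28778129, lay downstream of the gene, 15652 bp from its TSS, and scored 7.56, 9.81 and 7.77 in DA neurons with no peak in either 5-HT library. Its ranks among the peaks of the 3 DA libraries were 11519, 9651 and 12668, where 1 is the highest score, so it was also DA-only with the same number of peaks. The other, chr5:28796117-28796615, lay 2725 bp upstream of the TSS, with lower scores of 3.55, 5.68 and 4.75 in DA neurons, and it was not among the 22879 highest-scoring peaks of any library. Within the introns of *Shh*, a region at the promoter of the lincRNA *Gm17493* (chr5:28790652-28792414) scored 4.94, 6.3 and 6.08 in DA neurons and 4.57 in 5-HT replicate 1, with no peak in 5-HT replicate 2.

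*Ptch1*, the receptor that restrains SMO and a target of the signal, lies on the minus strand at chr13:63610261-63674474 with 16 regions. With all peaks, 8, 11 and 12 had a peak in DA neurons and 9 and 7 in 5-HT neurons. At the same number of peaks these became 2, 3 and 3 in DA and 5 and 7 in 5-HT neurons. 5-HT replicate 2 kept all of its peaks in this comparison.

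*Ptch1* has 4 annotated TSSs and 3 promoter regions. The region chr13:63664330-63668219, 3890 bp wide, scored 7.74, 8.13 and 7.97 in DA and 5.97 and 4.27 in 5-HT neurons and was among the highest-scoring peaks of all 5 libraries. At the most upstream TSS, chr13:63673406-63675296 scored 4.61, 5.96 and 4.83 in DA and 4.24 and 3.3 in 5-HT neurons, and with the same number of peaks it was kept in the 5-HT libraries alone. The third, chr13:63616161-63616606 in intron 20, was weak, with 3.45 and 3.7 in DA replicates 1 and 2, 3.04 in 5-HT replicate 2 and no peak in the other libraries.

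The highest-scoring region of the *Ptch1* window was distal. It lay at chr13:63668900-63669870, between the 2 stronger promoter regions and 5089 bp downstream of the most upstream TSS, and scored 10.6, 16.8 and 14.4 in DA and 8.38 and 5.55 in 5-HT neurons. Its ranks were 3957, 1665 and 1852 in DA and 2331 and 3171 in 5-HT neurons, high in every library and overlapping between the groups.

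Both 5-HT-only regions of the 8 windows lay in intron 2 of *Ptch1*. The region chr13:63655745-63656199 scored 5.57 and 3.02 in 5-HT replicates 1 and 2 and had no peak in any DA library, with all peaks or with the same number. The region chr13:63653012-63653396 scored 3.92 and 3.03 and lost its peak in 5-HT replicate 1 with the same number of peaks. Between them, chr13:63653916-63654369 had a peak in all 5 libraries (4, 7.02 and 5.54 in DA, 4.05 and 3.75 in 5-HT neurons). A further region of this intron, chr13:63659765-63660276, had a peak in DA replicate 3 only (3.25). The window also held 1 DA-only region with all peaks, chr13:63625518-63626891 in intron 17 (3.95, 3.96 and 3.1 in DA neurons). With the same number of peaks, no library kept that region. Windows with at least 1 5-HT-only region made up 2.13% of all gene windows and those with at least 2 made up 0.119% (24 of 20141), and *Ptch1* was singled out here after its values were seen.

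**Figure D2:**
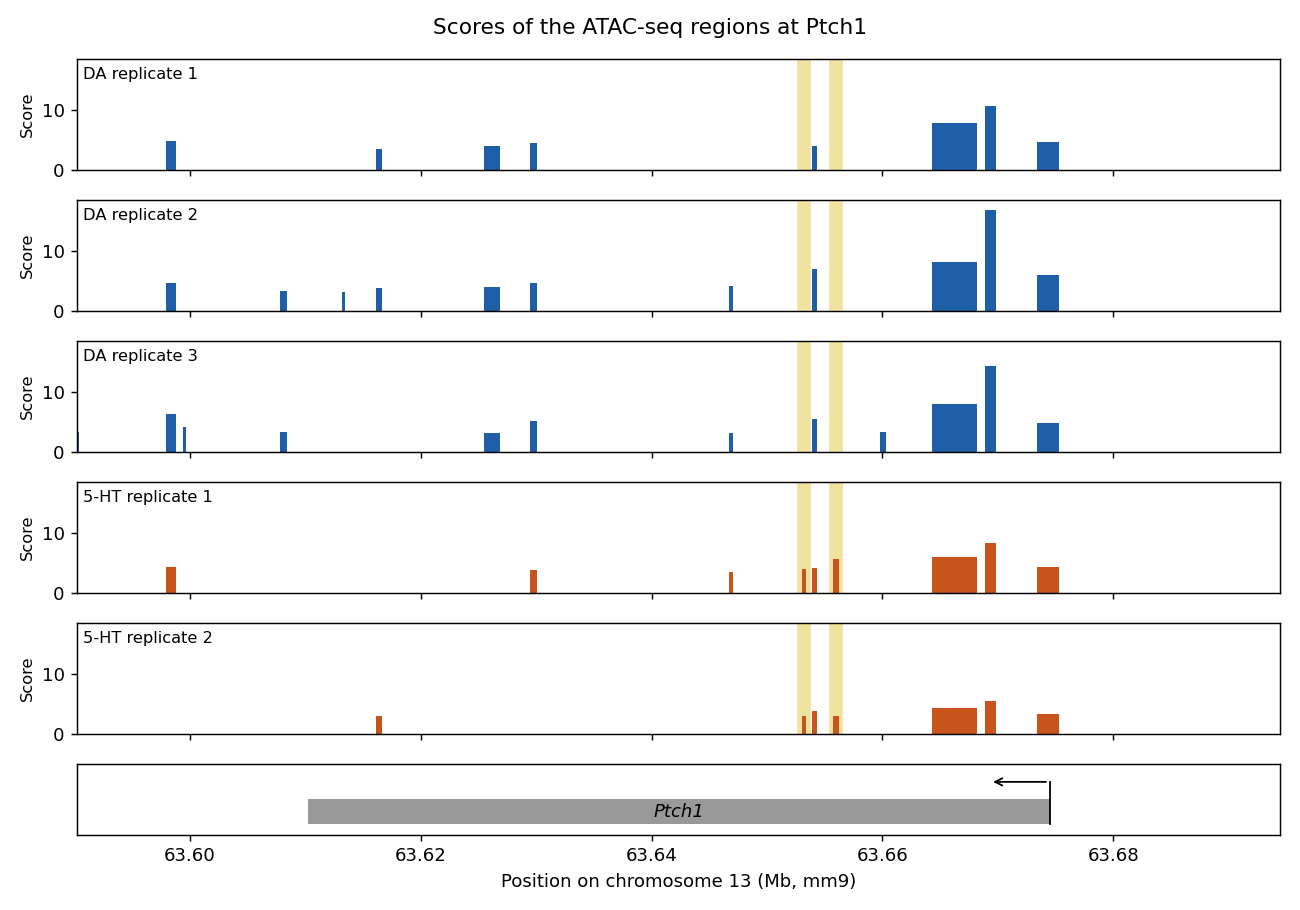
Scores (vertical axis, deposited score with no unit) of the regions in the Ptch1 window by position on chromosome 13 (mm9, horizontal axis) in each of the 5 libraries, with the gene body below and an arrow at its most upstream TSS. Each bar spans a region, narrow regions are drawn at a minimum width, and shading marks the 2 5-HT-only regions, which score 3.92 and 5.57 in 5-HT replicate 1 and have no bar in the 3 DA libraries.

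*Hhip* encodes a membrane protein that binds and sequesters the ligand, and it lies on the minus strand at chr8:82490014-82581905. Its promoter region, chr8:82579571-82582759, was present in all libraries, with scores of 5.3, 4.62 and 5.96 in DA and 3.93 and 3.19 in 5-HT neurons. This was the sole region of the 14 in all 3 DA libraries. With the same number of peaks it was kept in 5-HT replicate 2 only, and no other region of the window was kept in any library. Of the 13 distal regions, 10 had a peak in DA replicate 3 alone, with scores from 3.03 to 3.55 close to the lowest score in that library, 3.03. *Hhip* was thus open at its promoter in all 5 libraries, with no distal region that the DA libraries shared.

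*Smo* encodes the membrane protein that passes the signal into the cell and lies on the plus strand at chr6:29685694-29711365 with 6 regions. The promoter region, chr6:29685133-29686679, scored 5.01, 6.05 and 5.02 in DA and 4.19 and 4.68 in 5-HT neurons, and with the same number of peaks it was kept in both 5-HT libraries and in no DA library. Its rank was 27489, 27487 and 31497 in DA neurons and 22641 and 5527 in 5-HT neurons. Of the 4 distal regions, the one whose lowest DA score was highest, chr6:29667619-29668527, lay 17621 bp upstream and scored 5.5, 5.31 and 5.53, with 3.4 in 5-HT replicate 1 and no peak in 5-HT replicate 2. In intron 9, chr6:29708450-29708742 scored higher in DA replicates 1 and 2, at 5.55 and 6.41, with 3.95 in DA replicate 3, 4.5 in 5-HT replicate 2 and no peak in 5-HT replicate 1. Upstream of the gene, chr6:29668884-29669550 was DA-only with all peaks (4.77, 4.79 and 5.41).

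*Sufu*, which holds GLI proteins in the cytoplasm, lies on the plus strand at chr19:46471386-46563294 with 11 regions. Its promoter region, chr19:46471158-46471772, had the highest score of all 180 regions in DA replicates 1 and 2, at 17.1 and 23.5, with 13.6 in DA replicate 3 and 7.38 and 7.45 in 5-HT neurons. The ranks of 449, 330 and 2233 in DA and 4144 and 1057 in 5-HT neurons overlapped between the groups. The promoter region of the neighbour *Actr1a*, chr19:46469520-46470379, was as strong, with 16.6, 23.1 and 15.1 in DA and 8.47 and 8.37 in 5-HT neurons, and *Actr1a* and *Sufu* both have a promoter window over the *Sufu* region.

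The distal regions of *Sufu* were weaker. The one with the highest lowest score over the DA libraries, chr19:46527078-46527397 in intron 6, scored 4.56, 6.22 and 5.24 in DA neurons and 3.88 in 5-HT replicate 1, with no peak in 5-HT replicate 2. Downstream of the gene and within *Trim8*, chr19:46581609-46581990 was present in all 5 libraries (4.14, 6.69 and 3.81 in DA, 4.28 and 4.36 in 5-HT neurons) and was kept in the 5-HT libraries alone with the same number of peaks, although its rank of 22884 in DA replicate 2 was just past the 22879 peaks used. In the whole window, 2, 3 and 2 regions were kept in DA and 5 and 5 in 5-HT neurons, and the groups did not overlap. The promoter region of *Trim8*, chr19:46574101-46579021, was kept in DA replicate 2 and in both 5-HT libraries. In intron 3, chr19:46510174-46510332 was kept in 5-HT replicate 2 alone and chr19:46518637-46519038 in 5-HT replicate 1 alone. The difference at *Sufu* thus came from the regions at *Trim8* and from regions kept in a single library.

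*Gli1*, the GLI activator and a direct target of the signal, lies on the minus strand at chr10:126766945-126778645 and had the fewest regions, 5. Its promoter region, chr10:126779104-126779776, was present in DA replicates 2 and 3 (6.22 and 3.68), with 3.41 in 5-HT replicate 1, and had no peak in DA replicate 1 or 5-HT replicate 2. It therefore followed neither cell type. A distal region in intron 2, chr10:126775838-126776360, was stronger, with 9.17, 9.87 and 6.39 in DA and 6.49 and 3.61 in 5-HT neurons, and was kept in all 5 libraries with the same number of peaks. Upstream, within *Inhbe*, a region chosen after its values were seen, chr10:126787772-126787939, scored 10.5 and 6.98 in DA replicates 2 and 3 and had no peak in the other 3 libraries.

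*Gli2*, the main activator at the start of the response, lies on the minus strand at chr1:120730709-120950196. With all peaks, 21, 28 and 48 of its 56 regions had a peak in DA neurons and 9 and 4 in 5-HT neurons, whose libraries held fewer peaks. These became 4, 2 and 4 against 5 and 4 at the same number of peaks, and the groups overlapped. Its 2 promoter regions were present in all libraries, chr1:120950010-120950888 with 6.69, 7.28 and 8.36 in DA and 7.03 and 3.99 in 5-HT neurons, and chr1:120878996-120880222 with 5.96, 6.57 and 7.55 against 5.26 and 4.58.

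*Gli2* held 8 of the 16 DA-only regions found with all peaks, all of them in introns. Its distal region with the highest lowest DA score, chr1:120850716-120852966 in intron 2, scored 7.8, 9.66 and 8.35 in DA neurons and 3.9 in 5-HT replicate 1, with no peak in 5-HT replicate 2. Its ranks of 10559, 10066 and 10428 in DA neurons and 26792 in 5-HT replicate 1 made it DA-only with the same number of peaks. The 5-HT-only region, chr1:120929793-120931029 in intron 1, scored 3.45, 4.66 and 4.38 in DA and 5.13 and 4.57 in 5-HT neurons and was kept in the 5-HT libraries alone.

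*Gli3*, the main GLI repressor, lies on the plus strand at chr13:15555068-15821859. Of its 63 regions, 13, 23 and 49 had a peak in DA and 14 and 6 in 5-HT neurons, and 43 had a peak in 1 library only. The promoter region, chr13:15554163-15557276, was 3114 bp wide, with 3.68, 4.29 and 3.68 in DA and 3.94 and 4.01 in 5-HT neurons. With the same number of peaks it was kept in 5-HT replicate 2 only.

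Within the gene, in intron 3, 139781 bp from the first TSS, chr13:15693908-15695790 scored 11.3, 11 and 12.8 in DA neurons and 4 in 5-HT replicate 1, with no peak in 5-HT replicate 2. It ranked 3122, 7096 and 2729 in DA neurons and 25281 in 5-HT replicate 1, and was DA-only with the same number of peaks. In intron 12, chr13:15806871-15807408 had a peak in all 5 libraries, with 9.24, 6.48 and 8.67 in DA and 7.77 and 6.57 in 5-HT neurons.

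**Figure D3:**
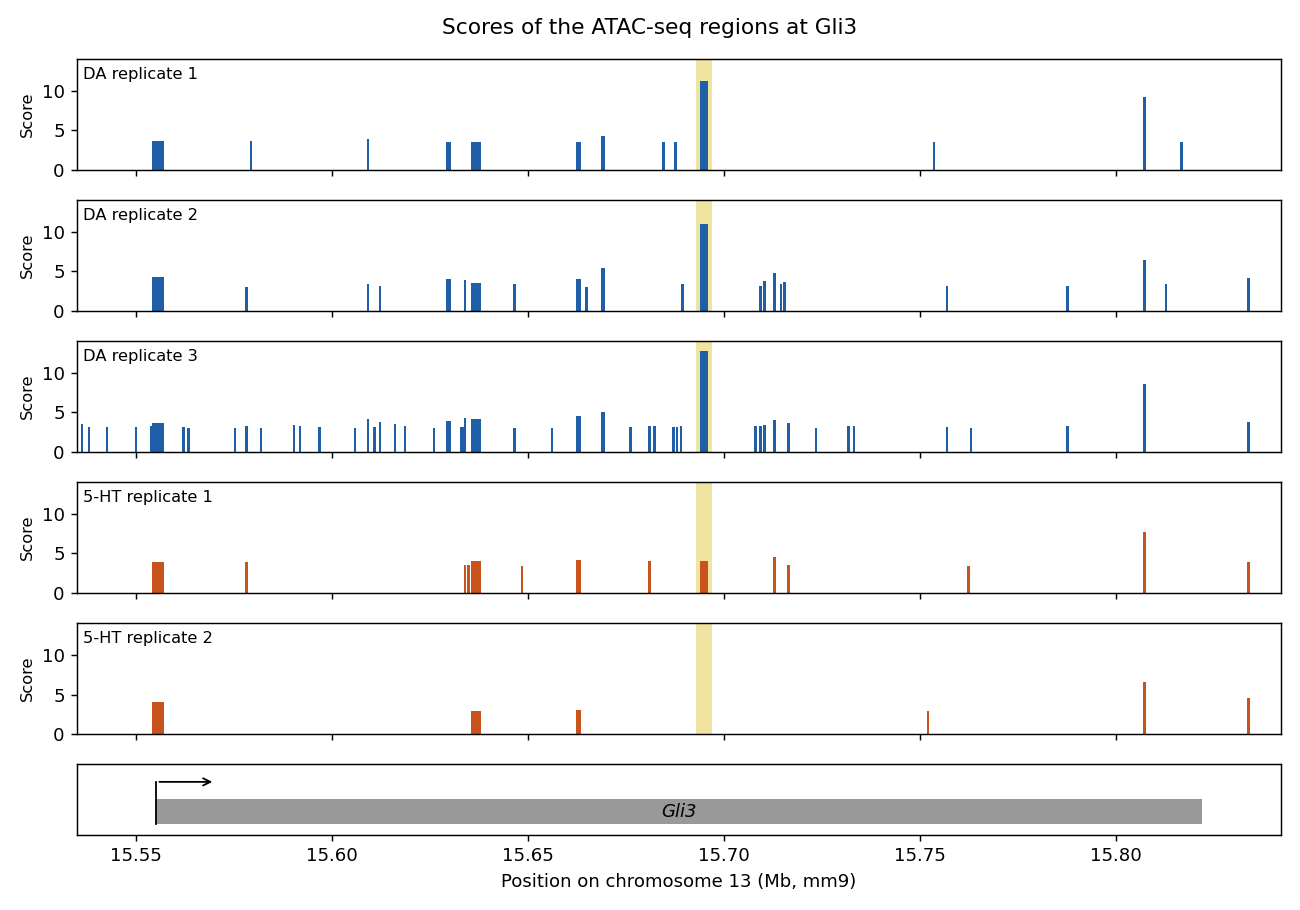
Scores (vertical axis, deposited score with no unit) of the regions in the Gli3 window by position on chromosome 13 (mm9, horizontal axis) in each of the 5 libraries, with the gene body below and an arrow at its first TSS. Each bar spans a region, narrow regions are drawn at a minimum width, and shading marks the region in intron 3 that scores 11.3, 11 and 12.8 in the DA libraries, 4 in 5-HT replicate 1 and has no bar in 5-HT replicate 2.

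Ranks were compared over the 23 regions present in all 5 libraries. At 14 of them both 5-HT libraries ranked the region higher than every DA library, and at none did all DA libraries rank it higher, against 30.0% and 11.4% of all regions present in all 5 libraries. A rank in 5-HT replicate 2 cannot go past 22879, so regions with a low rank lean this way by construction. Among the 9 regions kept in all 5 libraries with the same number of peaks, 3 ranked higher in 5-HT and 0 in DA neurons, against 14.7% and 16.2%. The members' shared regions had median scores of 5.37, 6.69 and 5.96 in DA neurons, below the 7.55, 9.28 and 8.08 over all shared regions of the same libraries. In 5-HT replicate 1 the median was 5.03 against 5.65, and in 5-HT replicate 2 it was 4.01 against 3.98.

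Of 26 further genes of the pathway, 14 had a promoter region in all 5 libraries, where 48.3% of all protein-coding genes did, 11 in some and 1 in none. The 3 genes for the degradation of GLI proteins, *Spop*, *Btrc* and *Cul3*, all had one in all 5 libraries, as did the receptor and co-receptor genes *Cdon*, *Boc*, *Gas1* and *Lrp2*, 5 of 11 genes of the primary cilium and its kinases and 2 of 7 genes for ligands and their release. The kinase genes *Gsk3b* (21.2, 28.5 and 24.6 in DA, 13.5 and 12.1 in 5-HT neurons) and *Prkaca* (18.4, 21.6 and 20.5 against 10.2 and 13.4), picked after their values were seen, had strong promoter regions in every library.

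Of the other ligand genes, *Dhh* had no promoter region and *Ihh* had one in DA replicate 2 only (3.19). *Scube2*, whose secreted product helps release the ligand, was present in the 3 DA libraries (4.19, 4.83 and 4.85) and in neither 5-HT library. With the same number of peaks, no library kept it. *Hhat*, the acyltransferase that modifies the ligand, and *Kif7*, a kinesin of the cilium, lacked the peak in 5-HT replicate 1 only.

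At *Scube3*, *Evc*, *Evc2*, *Stk36* and *Kif3a*, the promoter peak was missing in 5-HT replicate 2 only, the library with the fewest peaks. *Gpr161*, a receptor of the cilium that restrains the pathway, had its peak in 5-HT replicate 2 (4.12) and in DA replicates 2 and 3 (3.41 and 3.52). In all, promoter regions were present at 23, 25 and 24 of the 26 genes in DA and at 20 and 17 in 5-HT neurons. With the same number of peaks they were present at 15, 16 and 13 against 17 and 17. The order also turned over the promoter regions of all genes. Those with a peak numbered 14461, 16729 and 15870 in DA and 13726 and 11024 in 5-HT neurons with all peaks. With the same number of peaks, they were 9922, 9953 and 9582 against 10913 and 11024.

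GLI proteins bind the word GACCACCCA, which was searched on both strands of the mm9 genome. It was found in the central 300 bp of 2 of the 180 regions (1.11%, 0.305 to 3.96%), against 0.229% of all regions. One was the DA-only region upstream of *Smo*, chr6:29668884-29669550, and the other was chr1:120865933-120866130 in intron 2 of *Gli2*, which had a peak in DA replicate 3 alone (3.37). The core CCACCCA, which is part of the longer word, was found in this window at 18 of the 180 regions (10%, 6.42 to 15.3%), against 7% of all. The window was not shortened at regions narrower than 300 bp, so a match there can lie outside the region. Within the regions' own bounds, over their whole width, the core was found in 28 (15.6%), against 11.4%.

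Over the whole width of the regions, the longer word occurred in 4 of the 180 (2.22%), against 0.411% of all regions, and the added 2 were promoter regions of *Ptch1*, found after the central part had been searched. Among promoter regions, 2 of the 11 held it, against 1.19% of the 16220 at promoters of protein-coding genes. These 2 were 3890 and 1891 bp wide, where the median over all promoter regions was 1053 bp. In the central 300 bp, 0 of the 11 held it, against 0.247%. The matches are shown because *Ptch1* is a target of GLI proteins, with 20 bases on each side, the word in capitals and written in its own reading direction. A match describes the letters and not a bound site.
Ptch1, chr13:63667723-63667771, plus strand: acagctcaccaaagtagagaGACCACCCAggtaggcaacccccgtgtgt
Ptch1, chr13:63674753-63674801, minus strand: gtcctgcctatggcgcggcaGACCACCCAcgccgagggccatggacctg
Smo, chr6:29669053-29669101, minus strand: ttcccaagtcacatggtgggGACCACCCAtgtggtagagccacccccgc
Gli2, chr1:120866100-120866148, plus strand: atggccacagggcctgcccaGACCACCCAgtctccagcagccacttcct

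The first of these *Ptch1* matches lay 919 bp upstream of the TSS at 63666828, and the second 303 bp upstream of the most upstream TSS at 63674474. Both regions were present in all 5 libraries. The *Smo* match lay 16617 bp upstream of the TSS.

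At the same number of peaks, 6 distal regions were DA-only or 5-HT-only. The sequences of 4 are shown, whole at *Shh* and by the central 300 bp at the others, and the 5-HT-only regions of *Sufu* and *Gli2*, which had a peak in all 5 libraries with all peaks, are not. Capitals mark any match, on either strand, to GACCACCCA, CCACCCA, the FOXA word TGTTTAC, the OTX word TAATCC and the homeodomain word TAATTA. The central 300 bp window runs past the bounds of narrower regions. In it, TGTTTAC was found at 5.57% of all regions, TAATCC at 10.4% and TAATTA at 9.29%, and at 5.56%, 12.8% and 4.44% of the 180. Within the regions' own bounds, over their whole width, the shares were 8%, 15.1% and 12.5% of all regions. Among the 180 they were 9.44%, 17.8% and 8.33%. The 5-HT-only sequence of *Ptch1* held TAATTA, the 3 DA-only sequences as shown held none of the words, and each of the 2 sequences not shown held CCACCCA. Outside the central 300 bp, the DA-only region of *Gli2* held TAATCC at 2 sites, and that of *Gli3* held TAATCC at 2 sites and TAATTA at 1.
Shh, DA-only, chr5:28777850-28778129, plus strand: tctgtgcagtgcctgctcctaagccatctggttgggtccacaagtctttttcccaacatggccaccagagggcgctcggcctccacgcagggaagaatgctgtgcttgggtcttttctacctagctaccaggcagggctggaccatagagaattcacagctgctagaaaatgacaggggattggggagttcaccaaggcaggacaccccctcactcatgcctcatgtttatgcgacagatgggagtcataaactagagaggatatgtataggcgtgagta
Ptch1, 5-HT-only, chr13:63655822-63656121, plus strand: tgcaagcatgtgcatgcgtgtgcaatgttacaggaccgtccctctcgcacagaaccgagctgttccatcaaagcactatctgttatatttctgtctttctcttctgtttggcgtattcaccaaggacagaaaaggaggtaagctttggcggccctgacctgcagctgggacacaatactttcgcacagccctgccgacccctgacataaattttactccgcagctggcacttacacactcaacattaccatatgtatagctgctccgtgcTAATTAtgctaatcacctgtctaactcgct
Gli2, DA-only, chr1:120851691-120851990, plus strand: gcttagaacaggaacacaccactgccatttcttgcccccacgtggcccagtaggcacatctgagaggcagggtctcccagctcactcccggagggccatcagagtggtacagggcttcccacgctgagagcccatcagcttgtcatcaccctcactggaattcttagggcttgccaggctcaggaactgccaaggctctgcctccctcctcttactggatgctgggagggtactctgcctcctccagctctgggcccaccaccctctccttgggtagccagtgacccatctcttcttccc
Gli3, DA-only, chr13:15694699-15694998, plus strand: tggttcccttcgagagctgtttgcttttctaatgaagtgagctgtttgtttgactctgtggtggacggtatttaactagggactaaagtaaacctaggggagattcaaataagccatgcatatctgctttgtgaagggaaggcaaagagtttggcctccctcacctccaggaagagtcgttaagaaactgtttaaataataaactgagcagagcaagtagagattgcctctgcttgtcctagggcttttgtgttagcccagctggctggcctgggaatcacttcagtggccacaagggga

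The 3 DA-only windows differed in base composition, with a GC content of 52.9% at *Shh*, 60% at *Gli2* and 46.3% at *Gli3*, and the 5-HT-only window of *Ptch1* had 48.3%.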

How the data were processed

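Per the submitters' processing notes and the methods, reads were trimmed (Trimmomatic), aligned to mm9 (Bowtie2), cleared of duplicates (Picard) and used to call peaks in each library (MACS2). The authors deposited a score for each region and library, 0 where there was no peak, and the columns for signal and p-value hold no values. Padded spaces and 1 misspelled chromosome name in a file were corrected. Windows, promoters (overlap of at least 1 bp) and introns, numbered along the longest protein-coding transcript, came from the GENCODE annotation of mm9. Wilson 95% intervals cover counting error only. Regions are not replicates, so only the summed count per library was tested, and that p reflects the spread between these libraries, each from a separate sort. Named regions were each member's promoter regions, its distal region with the highest lowest DA score, those of 1 cell type and those with a GLI word. The regions of *Sufu*, *Gli2* and *Gli3* that were DA-only with all peaks are not given by position. The choice by the highest lowest score treats DA scores as if on one scale. Other regions given by position were singled out after their values were seen. The comparison of ranks and the words other than the GLI words were added later. The members and lists were chosen with earlier results of these data known. The RNA-seq samples were not analysed here. *Disp1* was not found in the annotation used. A further pathway gene, counted in the totals, is not reported here by itself. Sequences were read with samtools 1.23.1 and pysam 0.24.0, plots drawn with matplotlib 3.10.9 and tests run with SciPy 1.17.1 and NumPy 2.4.6, all under Python 3.11.15 with tables in pandas 2.3.3. The code was tested on simulated data.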

Additional observations from a re-analysis of the deposited data

How the results depend on the processing

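Of 68 alternatives over 8 results, 14 moved the value. The other 54 left it within 1.5 times, or in the same direction for the difference between the groups. Only that difference had a direction that could turn, and it kept its direction in all of its 12 alternatives. Among these, the share of all peaks in percent gave -0.00585, and there the groups overlapped. DA-only regions with all peaks were 8 with the higher-scoring 0.5 of the peaks, and 16 to 32 when each library was left out in turn. Leaving a library out can only keep or raise this count. With the same number of peaks, DA-only regions were 3 to 4 and 5-HT-only regions 5 to 19 when a library was left out, and 1 and 2 with 10000 peaks per library. Members with a promoter region in every library were 3 with the higher-scoring 0.5 of the peaks and 4 when the region's centre had to lie in the promoter. They were 4 with the same number of peaks, and 7 to 7 when a library was left out, which cannot lower this count. The GLI word was found in 1 region without flanks. The core word was found in the central 300 bp window of 18, a window that runs past the bounds of narrower regions. Members with every 5-HT library above every DA library, whose alternatives were chosen after seeing the data, were 2 to 5 when a library was left out, and 5 without 5-HT replicate 1.

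The difference between the groups at the same number of peaks ran from -15.3 to -9.5 regions when a library was left out. As a replicate block, samples 1 and 2 paired by their number differed by -7 and -15 regions, a mean of -11. The samples share only a number, and the deviations of equal numbers correlated at -0.0015 over all regions. Fewer than 6 libraries, an unknown read depth and an unnamed scale of the score limit all of these counts.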
